A study of Mus musculus with 18 samples.

Results

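The genes described here are 9 that intestinal epithelial cells switch on when the microbiota is present: the secreted C-type lectins *Reg3a*, *Reg3b* and *Reg3g* and their relative *Reg1*, the inducible nitric oxide synthase *Nos2*, the peroxide-producing oxidase *Duox2* with its maturation factor *Duoxa2*, the fucosyltransferase *Fut2* and the polymeric immunoglobulin receptor *Pigr*. They were picked by name for what is known of them, and each was found by its gene name on the array, with its brightest probe over all 18 arrays standing for it. All 9 were present among 37074 gene names on the array. Of the 9, 8 were among the 21542 genes bright enough to test, and all of these 8 were well above background on every array at their brightest probe, so none entered the test through 1 group alone. *Fut2* was too dim to test.

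Ileum cells came from 3 groups of 6 C57BL6/J mice, 1 array per mouse: floxed controls on chow (labelled iPGC1afl/fl, CHOW), floxed controls on a Western diet (WD, labelled HFD) and iPgc1α-/- mice on the WD. Both alleles of Pgc1α carried loxP sites in all 3 groups, and in iPgc1α-/- mice a Vil1-Cre transgene, active in the intestinal epithelium and not in immune or stromal cells, was used to remove exons 3 to 5. Mice were 8 weeks old at the start and were given chow or the WD (42% of kcal from fat, 0.2% cholesterol) for 8 weeks, then killed fasted at ZT 3. Cells were shaken off the ileum in a chelating buffer with no sort, so they could include lymphocytes that lie within the epithelium. Chow-fed iPgc1α-/- mice were not used here.

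In the normal gut, bacteria that touch the epithelium are sensed by pattern receptors in epithelial and dendritic cells, and these in turn drive lymphocytes to release IL-22 and IL-17. IL-22 acts on the epithelium through STAT3, and microbial products and IL-17 act through NF-κB; both routes raise the transcription of antimicrobial genes. Reg3γ and Reg3β are lectins that keep bacteria away from the mucosal surface, with Reg3γ acting on Gram-positive species. Duox2 releases hydrogen peroxide at the apical membrane and needs Duoxa2 to leave the endoplasmic reticulum. Nos2 makes nitric oxide from arginine, Fut2 adds terminal fucose to surface glycans on which commensals feed, and Pigr carries dimeric IgA across the cell into the lumen.

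The genes lie on 5 chromosomes. On mouse assembly GRCm38.p6, *Reg3b* (chr6:78370885-78373466), *Reg3a* (chr6:78380709-78383839), *Reg1* (chr6:78425983-78428668) and *Reg3g* (chr6:78466269-78468874) share a stretch of 98.0 kb on chromosome 6, and *Reg3g* is on the opposite strand to the other three. *Duox2* (chr2:122279246-122298740) and *Duoxa2* (chr2:122298900-122302885) are neighbours transcribed away from each other, with 159 bases between their annotated spans. *Nos2* is at chr11:78920787-78960226, *Fut2* at chr7:45648591-45666394 and *Pigr* at chr1:130826684-130852249. Probe positions are given on mm9, the build of the array files, and were not placed in exons or introns here.

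Since the Reg genes are close relatives, the first 30 of the 60 bases of each Reg probe are shown to let the probes be told apart, 5′ to 3′.
Reg3b probe (mm9 chr6:78323323-78323382, plus strand): gtgaagactcacctagaaaaagcattttct
Reg3g probe (mm9 chr6:78416420-78416479, minus strand): gagtacagaattgacatcatgggttgatat
Reg3a probe (mm9 chr6:78333635-78333694, plus strand): cccatgacaagggatgaaatacaagaattc
Reg1 probe (mm9 chr6:78378527-78378586, plus strand): ggaccatctatcaaaagcaaattagatcct
No pair of these 4 probes had more than 7 bases in a row in common over their full length. At the best ungapped match, between 19 and 26 of 60 positions were identical.

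The array carried a pair of probes under the name *Pigr*, and they differ in kind. The brighter one, which the rule on brightness picks, is a repeat made of A and G alone, and the files place it on chromosome 19 and not at the gene; the other lies at the gene on chromosome 1. The first 30 bases of each are given, with the purine repeat in capitals.
Pigr repeat probe (mm9 chr19:5932558-5932617, minus strand): GAGGAGGAGGAGGAGAAGGAGAAGGAGAAG
Pigr probe at the gene (mm9 chr1:132741106-132741165, plus strand): caagaaatccctgtgtaagaagacaaacca
All 60 bases of the repeat probe were A or G, as in 15 of 56605 probes on the array. *Pigr* is therefore described by the probe at the gene first, a choice made after the probes and their values were seen, and the repeat probe is given beside it.

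The sequences upstream of the Reg genes are shown because these genes are neighbours whose signals did not all move the same way. Promoter windows of 250 bases before to 50 after the start of transcription were found for 7 of the 9 genes in the RefSeq-based table of GRCm38.p6, and were searched on both strands for TTCNNNGAA, the palindromic GAS motif bound by STAT factors, and for the κB consensus bound by NF-κB. GAS matches are found in 8.30% of all 32851 promoters of the table and κB matches in 4.51%. The 250 bases before the start are printed, with a matched motif in capitals.
Reg3b (chr6:78370635-78370884, plus strand): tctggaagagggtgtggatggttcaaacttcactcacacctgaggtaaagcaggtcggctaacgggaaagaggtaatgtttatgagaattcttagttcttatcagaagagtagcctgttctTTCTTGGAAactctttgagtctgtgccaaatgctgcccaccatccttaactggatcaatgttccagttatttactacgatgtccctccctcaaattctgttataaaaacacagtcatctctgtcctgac
Reg3g (chr6:78468875-78469124, minus strand): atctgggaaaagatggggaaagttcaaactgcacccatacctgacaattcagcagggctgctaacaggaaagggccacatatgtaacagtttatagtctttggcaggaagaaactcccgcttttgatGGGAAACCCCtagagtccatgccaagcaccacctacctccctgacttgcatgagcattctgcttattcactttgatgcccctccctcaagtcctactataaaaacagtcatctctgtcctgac
Reg3a (chr6:78380459-78380708, plus strand): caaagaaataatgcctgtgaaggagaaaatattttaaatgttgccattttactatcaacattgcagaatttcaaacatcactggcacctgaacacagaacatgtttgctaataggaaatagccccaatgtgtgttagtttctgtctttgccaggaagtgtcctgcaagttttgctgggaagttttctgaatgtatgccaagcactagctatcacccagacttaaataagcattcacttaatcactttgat
Reg1 (chr6:78425733-78425982, plus strand): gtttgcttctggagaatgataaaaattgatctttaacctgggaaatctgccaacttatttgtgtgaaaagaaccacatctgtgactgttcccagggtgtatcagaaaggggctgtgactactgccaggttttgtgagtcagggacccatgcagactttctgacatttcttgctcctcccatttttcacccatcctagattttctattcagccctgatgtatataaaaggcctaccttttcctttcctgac
A GAS match was found in 2 of the 7 windows, in *Reg3b* from -129 to -121 relative to the start and in *Pigr* from 39 to 47, and a κB match in 1, in *Reg3g* from -123 to -114. The matches did not overlap each other. In the 50 bases just before the start, compared position by position with no gaps, *Reg3b* and *Reg3g* were identical at 33 positions, against 16 to 22 for the other pairs of Reg genes. A match describes letters only; binding of any factor was not measured.

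On the arrays, between 56.3% and 62.3% of spots were well above background, no spot was saturated, and the 3 slides held 2 arrays of each group. Levels below are normalized signals on the log2 scale, where a difference of 1 is a doubling, and levels of different probes are not compared. A gene was called when limma's test gave an adjusted p of 0.05 or lower and its fold change was above 1.5. As a check of the labels, the signal of *Ppargc1a*, the gene of Pgc1α, was 11.37 ± 0.07 (SD, n = 6) in floxed and 11.67 ± 0.26 in iPgc1α-/- mice on the WD, a difference of 0.30 (SE 0.16, limma adjusted p = 0.57) and hence no fall. Whether its probe lies in the deleted exons was not determined, and directions by genotype refer to the labels. Apart from the arrays, the paper reports the deletion by RT-qPCR of Pgc1α along the intestine, with lower ileal expression of its target genes. All 11 enterocyte markers listed, *Vil1*, *Fabp2* and *Sis* among them, were bright enough to test.

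**Figure D1:**
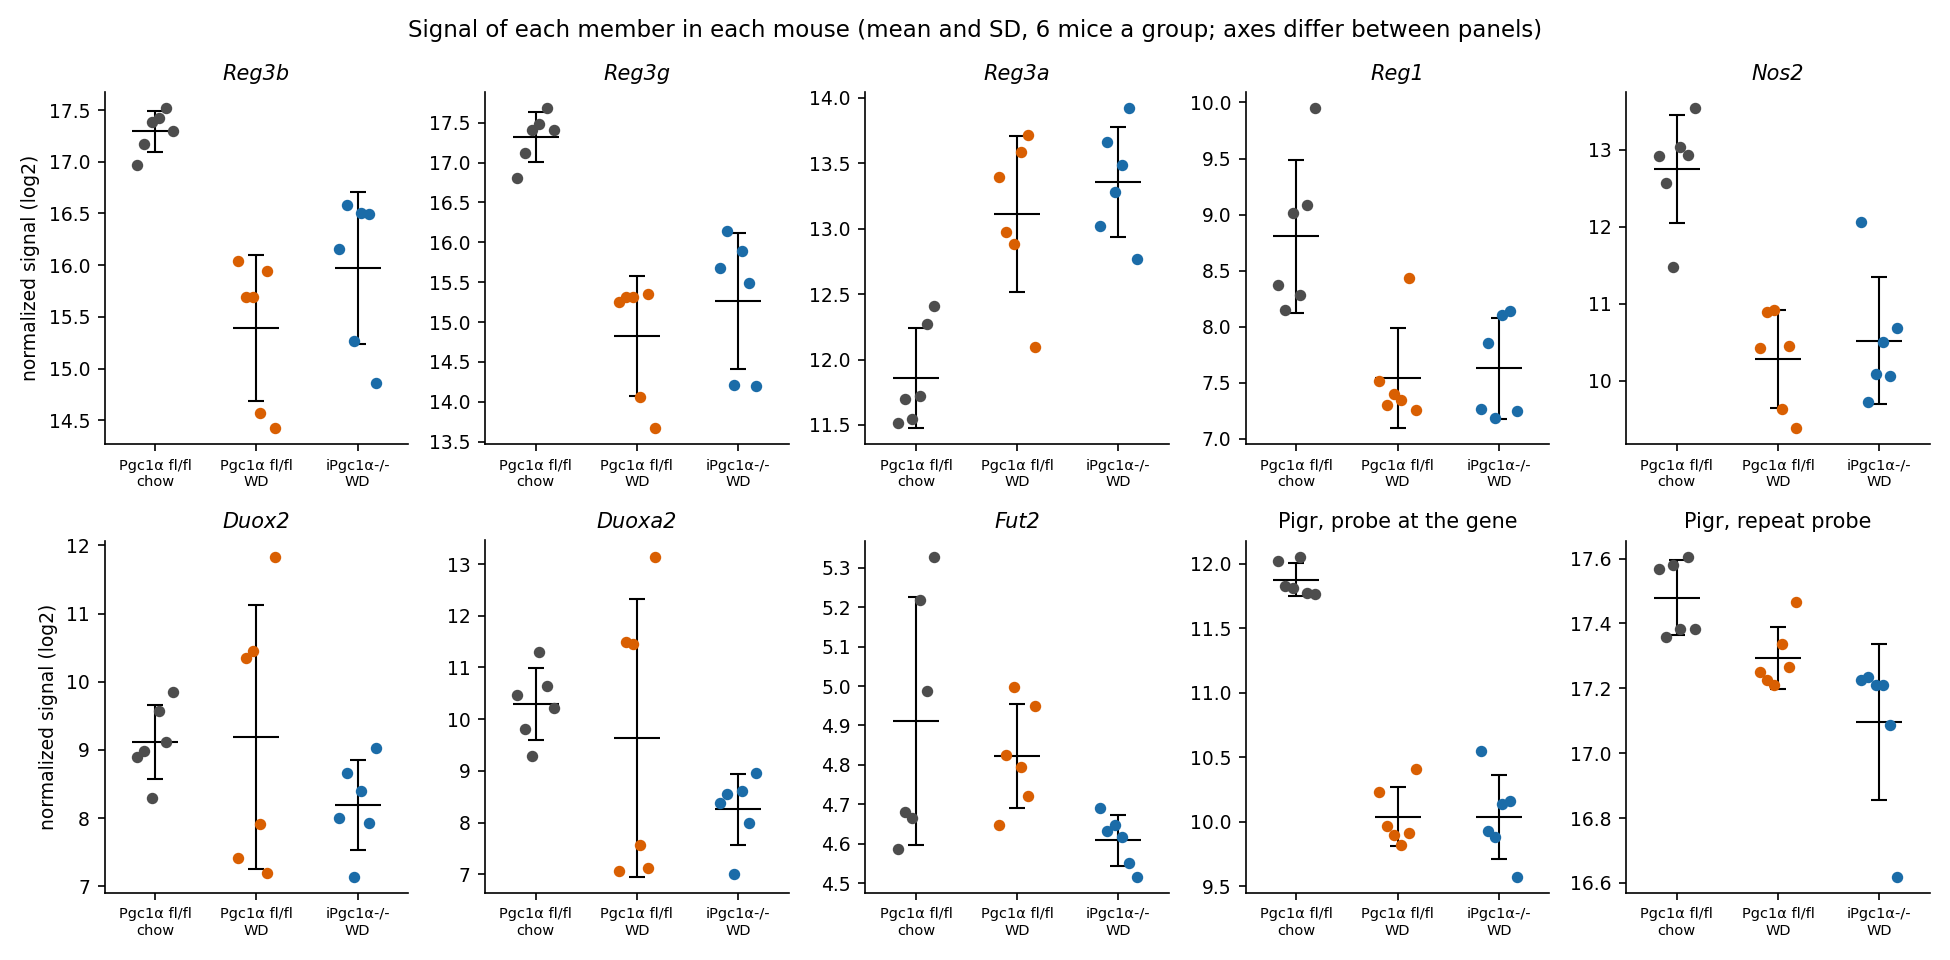
Normalized signal (log2) of each gene in each mouse, 1 point a mouse, by group, with the mean and SD of 6 mice; the axes differ between panels. Reg3b, Reg3g, Nos2 and Pigr at the gene lie lower in all 6 floxed mice on the WD than in all 6 on chow, Reg3a lies mostly higher, and Duoxa2 in floxed mice on the WD is spread from 7.07 to 13.15.

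The first comparison asked what the WD did in floxed mice. Of the 8 genes tested, 5 were called, 4 lower and 1 higher on the WD, where 8.43% of all genes tested were called (5.22% lower and 3.21% higher). With *Pigr* read at the gene, 6 of 8 were called, 5 of them lower. *Reg3b*, *Reg3g* and *Nos2* fell in all 6 mice below the lowest mouse on chow, as did *Pigr* at the gene, whereas 5.31% of all genes were lower with no overlap and 10.4% did not overlap in either direction. The median log2 fold change of the 8 was -0.96, or -1.55 with *Pigr* at the gene, against 0.0020 for all genes. The cells were a bulk sample in which markers of lymphocytes and goblet cells also differed by diet (values at the end), and fewer cells of a type and less RNA per cell cannot be told apart.

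*Reg3g* had the largest fall among the lectins. Its level ran from 16.81 over a median of 17.41 to 17.68 in mice on chow, from 13.67 over 15.28 to 15.35 in floxed mice on the WD, and from 14.19 over 15.58 to 16.14 in iPgc1α-/- mice on the WD. No mouse on the WD reached the lowest mouse on chow. In floxed mice the level was 5.62-fold lower on the WD (log2 fold change -2.49, SE 0.34, limma adjusted p = 2.8e-05), and it was lower within each of the 3 slides, with differences of -3.44 to -1.77. The exact permutation test over mice gave p = 0.0022, two-sided, the smallest that 6 against 6 allow.

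*Reg3b* moved in the same direction. It ran from 16.97 over 17.34 to 17.52 on chow, from 14.42 over 15.69 to 16.04 in floxed mice on the WD, and from 14.86 over 16.32 to 16.58 in iPgc1α-/- mice on the WD. The groups on the WD overlapped each other and neither overlapped chow. The level was 3.73-fold lower on the WD in floxed mice (log2 fold change -1.90, SE 0.30, limma adjusted p = 0.00013), with differences from -2.80 to -1.36 within slides.

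*Reg3a*, which lies between *Reg3b* and *Reg1*, went the other way. It ran from 11.52 over 11.71 to 12.41 on chow and from 12.10 over 13.19 to 13.72 in floxed mice on the WD, so that the groups overlapped only through replicate 6 on the WD, at 12.10. The level rose 2.38-fold (log2 fold change 1.25, SE 0.24, limma adjusted p = 0.00086), by 0.80 to 1.82 within slides. In iPgc1α-/- mice on the WD it ran from 12.77 over 13.38 to 13.92, above every mouse on chow.

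*Reg1*, a secreted lectin of the same family best known from the pancreas, was 2.40-fold lower on the WD (log2 fold change -1.27, SE 0.27, limma adjusted p = 0.0021). It ran from 8.15 over 8.69 to 9.95 on chow and from 7.25 over 7.37 to 8.44 in floxed mice on the WD. A single mouse on the WD, replicate 5, stood within the range of chow. The differences within slides were -2.06 to -0.82. Of the other Reg genes, *Reg4* rose (log2 fold change 0.85, SE 0.26, limma adjusted p = 0.025), *Reg3d* had a log2 fold change of -0.09 (adjusted p = 0.82), and *Reg2* was too dim to test.

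*Nos2* (probe at mm9 chr11:78773567-78773626) was among the members with the largest changes. It ran from 11.48 over 12.93 to 13.54 on chow, from 9.38 over 10.43 to 10.91 in floxed mice on the WD and from 9.72 over 10.30 to 12.06 in iPgc1α-/- mice. Floxed mice on the WD all lay below chow, while 1 iPgc1α-/- mouse, replicate 1 at 12.06, lay within the range of chow. The level was 5.53-fold lower on the WD in floxed mice (log2 fold change -2.47, SE 0.37, limma adjusted p = 5.9e-05), by -3.30 to -1.54 within slides.

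*Pigr* at the gene had the smallest standard error of the genes called for diet. It ran from 11.77 over 11.82 to 12.06 on chow, from 9.82 over 9.94 to 10.41 in floxed mice on the WD and from 9.57 over 10.03 to 10.55 in iPgc1α-/- mice. Every mouse on the WD lay more than 1 unit below every mouse on chow. The level was 3.57-fold lower (log2 fold change -1.84, SE 0.13, limma adjusted p = 1.6e-08), by -1.97 to -1.71 within slides. The repeat probe under the same name ran from 17.36 to 17.61 on chow and from 17.21 to 17.47 in floxed mice on the WD, with a log2 fold change of -0.19 (SE 0.10, adjusted p = 0.17). The 2 probes thus differed in size of change and in call, and by the rule on brightness alone *Pigr* would be reported as not called.

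The oxidase pair showed no called difference between diets, since the floxed mice on the WD disagreed with each other. *Duoxa2* (probe at mm9 chr2:122128112-122128171) ran from 9.30 over 10.34 to 11.31 on chow. In floxed mice on the WD, replicates 1 to 6 stood at 7.07, 11.48, 11.46, 7.57, 7.12 and 13.15. Replicates 1, 4 and 5 were below every mouse on chow and replicates 2, 3 and 6 above every one, and each slide held 1 high and 1 low mouse. The arrays of these mice also differed in brightness: replicates 2, 3 and 6 had 56.3%, 56.8% and 57.0% of spots well above background and median raw signals of 44, 41.5 and 39, against 60.6%, 61.7% and 59.6% and 52 in each of replicates 1, 4 and 5. Its part in the *Duoxa2* values was not tested. The log2 fold change was -0.65 (95% interval -2.37 to 1.07, limma adjusted p = 0.61).

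*Duox2* (brightest probe at mm9 chr2:122108679-122108738) was low and high in the same mice. It ran from 8.29 over 9.05 to 9.84 on chow, and replicates 1 to 6 of floxed mice on the WD stood at 7.42, 10.35, 10.45, 7.92, 7.19 and 11.84. The log2 fold change was 0.08 (95% interval -1.20 to 1.35, adjusted p = 0.95). Its other 2 probes also had the lowest values in replicates 1, 4 and 5 and the highest in replicate 6, and their log2 fold changes were -0.44 and -0.18, so the sign of the mean depends on the probe. The SD among floxed mice on the WD was 2.69 for *Duoxa2*, larger than in all but 2 of 21542 genes, and 1.93 for *Duox2*, larger than in all but 7, where the median over genes was 0.17. On chow the SDs were 0.70 and 0.54, and in iPgc1α-/- mice on the WD 0.69 and 0.66.

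*Fut2* (probe at mm9 chr7:52905946-52906005) was well above background on 3 of the 6 arrays from chow-fed mice and on none of the 12 from mice on the WD. Its signal ran from 4.59 to 5.33 on chow, from 4.65 to 5.00 in floxed mice on the WD and from 4.52 to 4.69 in iPgc1α-/- mice. A floor was taken on each array as the lowest signal well above background, or the *Fut2* signal itself where that was higher. The mean on chow, 4.91, stood 0.05 on the log2 scale above the mean floor of floxed mice on the WD, 4.86. At this brightness a larger fall could not be measured.

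**Figure D2:**
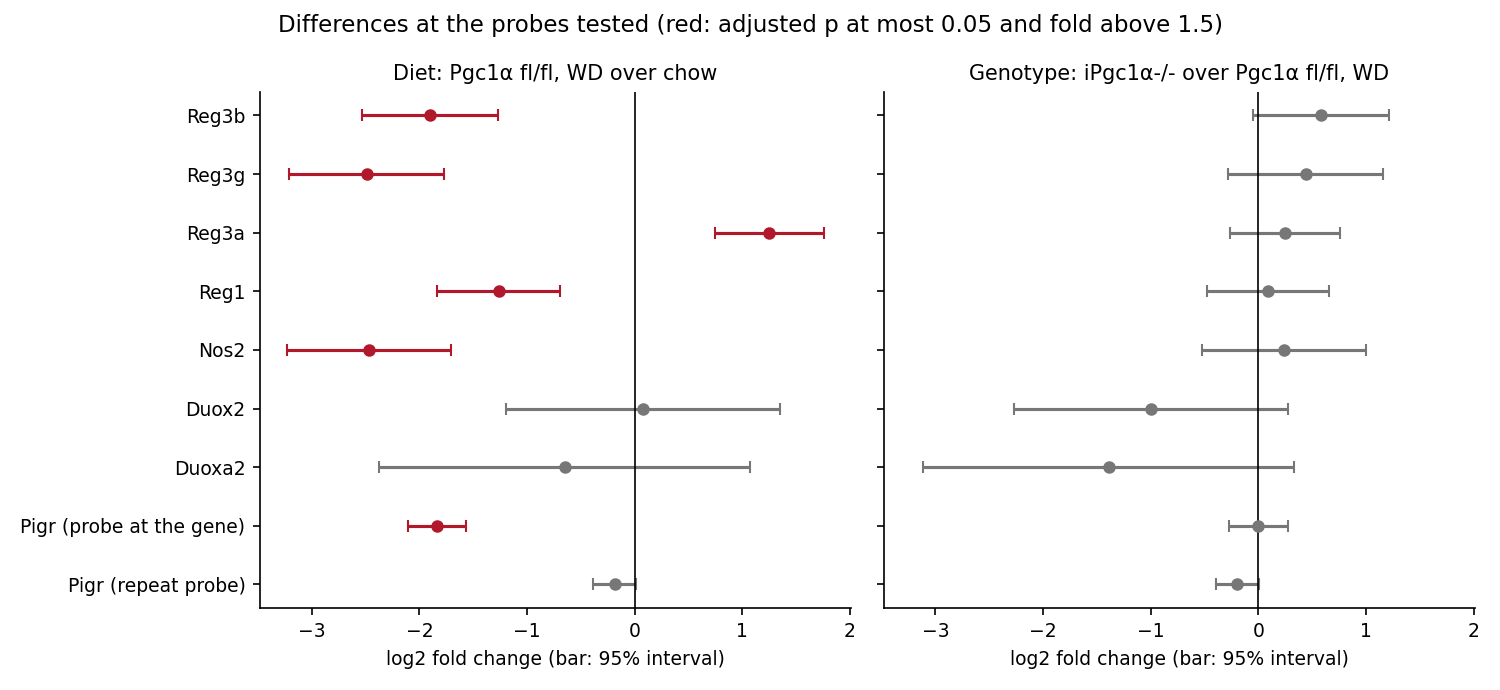
Log2 fold changes (points) with 95% intervals (bars) of the genes tested, for diet in floxed mice (left) and for genotype on the WD (right), red where called. Reg3b, Reg3g, Reg1, Nos2 and Pigr at the gene lie below 0 for diet and Reg3a above it, and every interval for genotype includes 0.

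The second comparison asked what the deletion did on the WD. None of the 8 genes was called (limma, 0 of 8 also at an unadjusted p under 0.05), where 0.135% of all genes tested were called and 9.32% had an unadjusted p under 0.05. The exact permutation test, unadjusted, gave a p under 0.05 for 1 of the 8, the *Pigr* repeat probe (p = 0.015, log2 fold change -0.20). *Reg3b* differed by 0.58 on the log2 scale (95% interval -0.05 to 1.22, adjusted p = 0.55) and *Reg3g* by 0.44 (95% interval -0.28 to 1.16). *Reg3a* differed by 0.25 (95% interval -0.26 to 0.75), *Nos2* by 0.24 (-0.52 to 1.0) and *Reg1* by 0.09 (-0.48 to 0.66). *Pigr* at the gene differed by -0.0013 (-0.27 to 0.27). No gene of the 8 separated the groups, as 0.966% of all genes did.

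*Duoxa2* had the widest interval for genotype. In iPgc1α-/- mice it ran from 7.01 over 8.46 to 8.97, overlapping the floxed mice on the WD, and its log2 fold change was -1.39 (95% interval -3.11 to 0.34, limma adjusted p = 0.60). *Duox2* ran from 7.14 over 8.20 to 9.04, with a log2 fold change of -0.998 (95% interval -2.27 to 0.28, adjusted p = 0.61).

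Set against floxed mice on chow, iPgc1α-/- mice on the WD differ in diet and genotype together, which cannot be told apart in this pair; it shares its mice with the other comparisons. Here 5 of 8 were called again (6 with *Pigr* at the gene), 4 of the 5 lower, where 11.8% of all genes were (6.85% lower and 4.96% higher). The groups did not overlap for 6 of 8, as for 16.2% of all genes. The log2 fold changes were -2.05 for *Reg3g*, -1.32 for *Reg3b*, 1.50 for *Reg3a*, -1.18 for *Reg1*, -2.23 for *Nos2* and -1.84 for *Pigr* at the gene. *Duoxa2* was lower in all 6 iPgc1α-/- mice on the WD than in all 6 mice on chow, as 8.63% of all genes were, by -2.04 (SE 0.83, limma adjusted p = 0.061). Its call depends on the floxed mice on the WD, which are not in this pair but set the shared variance: it was called with only these 2 groups in the model (adjusted p = 0.00035), and in the full model without floxed replicate 1, 5 or 6 on the WD (adjusted p = 0.043, 0.045 and 0.026). *Duox2* differed by -0.92 (adjusted p = 0.25, and 0.024 with only these 2 groups in the model). Its other 2 probes differed by -1.30 and -0.80 (limma adjusted p = 0.091 and 0.19), neither called. At the first of these the groups did not overlap (exact permutation p = 0.0022, unadjusted).

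Genes that vary together between mice of a group were looked for among all 28 pairs of the 8 genes, on deviations from the group means over 18 mice, with *Pigr* at its repeat probe. Of the 28 pairs, 3 had an adjusted p of 0.05 or lower for Pearson's r, all positive. *Duox2* and *Duoxa2*, neighbours on chromosome 2, had r = 0.97 (rho = 0.92, permutation p = 1e-05, the smallest that 100000 permutations within groups give, adjusted 0.00028; for rho 0.00052, adjusted 0.0073). Without the 2 mice farthest from the median, r was 0.94, and within chow, floxed WD and iPgc1α-/- mice it was 0.66, 0.996 and 0.95. *Reg3b* and *Reg3g* had r = 0.96 (rho = 0.93, permutation p = 2e-05, adjusted 0.00028; for rho 6e-05, adjusted 0.0017) and 0.94 without 2 mice, and 0.99, 0.97 and 0.96 within the groups. *Reg3a* and *Reg1* had r = 0.68 (rho = 0.69, permutation p = 0.0021, adjusted 0.020; for rho 0.0018, adjusted 0.017) and 0.68 without 2 mice, although under the WD the mean of the first rose and that of the second fell.

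**Figure D3:**
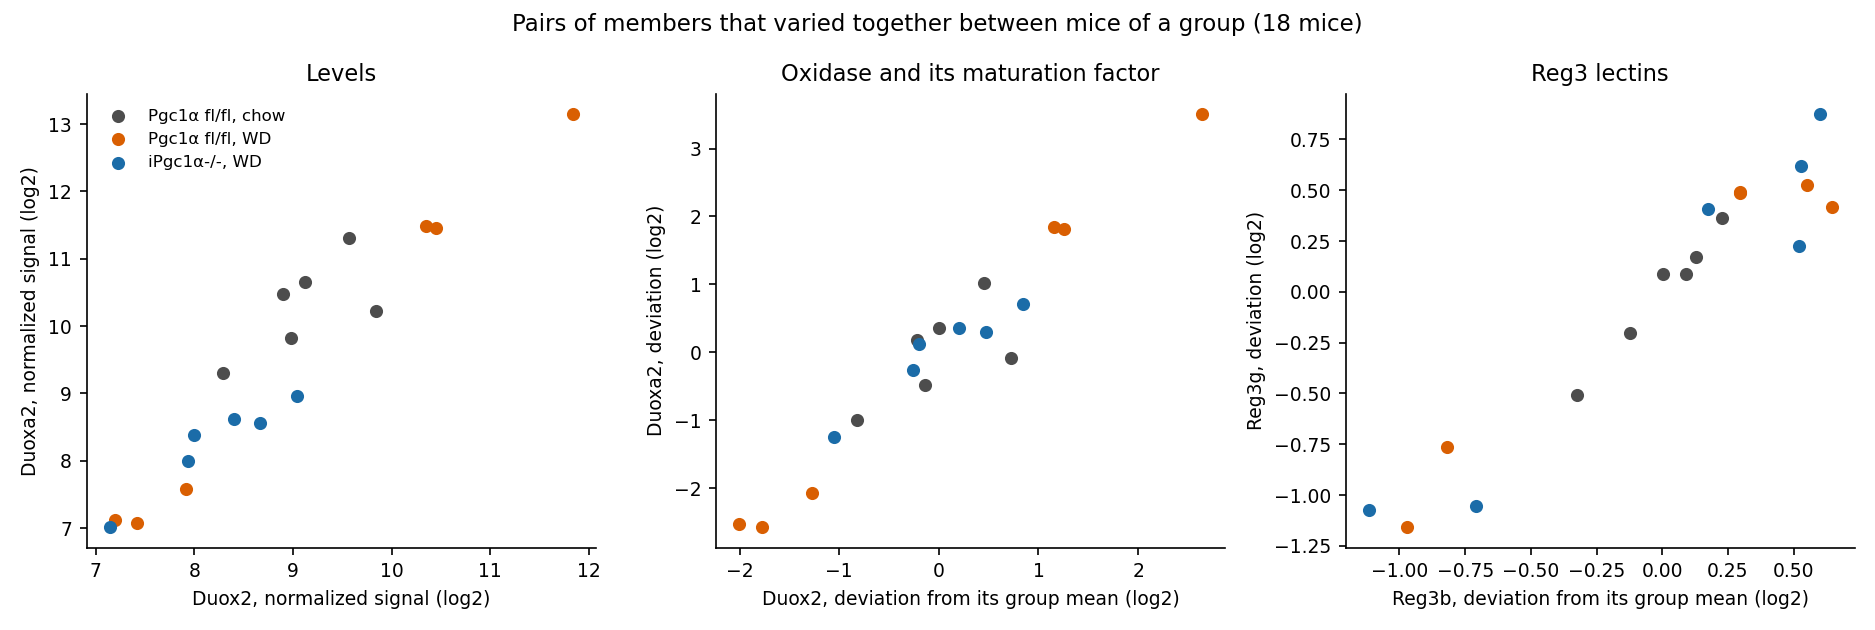
Left, level (log2) of Duox2 and Duoxa2 in each of 18 mice. Middle and right, deviation of each mouse from its group mean (log2) for Duox2 and Duoxa2 and for Reg3b and Reg3g, coloured by group. Points of all 3 groups follow a rising line in each panel, with r of 0.97 and 0.96 for the deviations.

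Pairs across these sets had lower r, and *Reg3b* with *Reg1* passed for rho only (r = 0.49, permutation p = 0.018, adjusted 0.10; rho = 0.58, p = 0.0028, adjusted 0.020). *Reg3g* and *Duoxa2* had r = -0.11 (rho = 0.04, permutation p = 0.62, adjusted 0.80; for rho 0.89) and 0.34 without 2 mice. *Reg3a* and *Duoxa2* had r = -0.64 (rho = -0.50, permutation p = 0.018, adjusted 0.10; for rho 0.061), which rested on floxed replicates 5 and 6 on the WD, since r was -0.37 without them. Floxed replicate 6 on the WD had the highest *Duoxa2* and *Duox2* of all 18 mice and, within its group, the lowest *Reg3a*, *Reg3b*, *Reg3g*, *Reg1* and *Nos2* and the highest *Pigr* at both probes. Its array had the lowest median raw signal of the 18 (39), and the part of this in its values was not tested. Without this mouse the log2 fold changes for diet were -1.69 for *Reg3b*, -2.24 for *Reg3g*, 1.46 for *Reg3a*, -1.19 for *Reg1* and -2.28 for *Nos2*, all still called by limma, and those of *Duoxa2* and *Duox2* were -1.34 and -0.44, neither of them called.

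A mean deviation of the 8 genes, each scaled to its SD, was taken with *Pigr* at its repeat probe. Among the 21470 genes searched, the deviations most like this mean were those of *4933439K11Rik* (r = 0.88), an unnamed transcript on chromosome 13 (0.86), the complement regulator *Cfi* (0.83), *1810063I02Rik* (0.83), *Gpr160* (0.76) and *Tcap* (0.74), over the same 18 arrays. Of these, the chromosome 13 transcript and *Cfi* were also called lower on the WD in floxed mice (log2 fold change -2.25 and -0.80). The genes most like *Duoxa2* alone, chosen after the values were seen, were *AA467197*, also on chromosome 2 (r = 0.96), *Bmx* (0.94), *Pla2g4c* (0.93), *Sprr2a2* (0.93), *Hmx3* (0.93) and *Gsdmc3* (0.92). *Ramp1* ran opposite to it (r = -0.90). These values describe arrays that share each mouse's cell mix, and no p is given for genes picked as the most alike of so many.

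The other genes of these pathways were taken from 8 lists, a few of whose genes, such as *Jchain*, are also markers of immune cells. On the WD in floxed mice, 31 of 96 genes tested were called, 27 lower and 4 higher. Over all genes tested, 8.43% were called (5.22% lower and 3.21% higher), with a median log2 fold change of 0.0020. Some called genes were dim in floxed mice on the WD, near the floor of 4.86 used for *Fut2*. There *Ifng* averaged 4.87, *Tgfb1* 5.03, *Saa3* 5.12, *Il22ra2* 5.14 and *Tlr2* 5.37. The filter asked for brightness in any 1 group, so such genes could pass through chow, and the size of their falls is not resolved. In the signalling list, 4 of 17 were called, all lower, with a median log2 fold change of -0.19: *Socs3*, the feedback inhibitor of STAT3 (-1.39, SE 0.38), *Nfkbiz*, a nuclear cofactor of NF-κB (-1.38, SE 0.19), the transcription factor *Cebpd* (-1.19, SE 0.32), and *Il22ra2*, the soluble decoy receptor of IL-22 (-0.70, SE 0.14). *Il22ra1*, the epithelial receptor subunit, was not called (-0.32, adjusted p = 0.27), and *Stat3* had an adjusted p of 0.025 at a fold change under 1.5 (-0.32).

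Among the microbial pattern receptors and adaptors, 5 of 20 were called, all lower (median -0.19). The 4 with the largest change were *Cd14*, the co-receptor for lipopolysaccharide (-1.29, SE 0.15), *Tlr1* and *Tlr2*, which together sense bacterial lipopeptides (-1.16, SE 0.16, and -0.99, SE 0.14), and the peptidoglycan sensor *Nod1* (-0.76, SE 0.20). *Tlr4*, *Tlr5* and *Myd88* were not called (0.05, 0.02 and -0.28). Of the 15 inducing cytokines and type 3 immune genes only 6 were bright enough to test, and *Ltb* (-1.77, SE 0.26) and *Ifng* (-1.25, SE 0.22), which lymphocytes make, fell. The levels of *Il22* and *Il17a* could not be followed, as neither was among these 6.

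The list of other microbiota-induced epithelial genes moved most. Of 17 tested, 11 were called, 10 lower and 1 higher, with a median of -0.79. The serum amyloid genes *Saa2* (-5.91, SE 0.41), *Saa1* (-4.92, SE 0.31) and *Saa3* (-1.74, SE 0.32) and the tryptophan-degrading enzyme *Ido1* (-1.47, SE 0.16) fell most, with no overlap between the diets. *Il33*, an alarmin and the only one called higher, rose by 0.88 (named after its value was seen).

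In the list on peroxide and nitric oxide, 3 of 14 were called: *Cyba*, the membrane partner of the NADPH oxidases, and *Noxa1*, the activator of Nox1, fell (-1.28, SE 0.14, and -1.07, SE 0.18), and *Arg2*, an arginase that uses the same substrate as Nos2, rose (1.24, SE 0.15). In the fucosylation list 1 of 11 was called, *Gmds*, an enzyme on the way to GDP-fucose (-0.87, SE 0.12). In the list on IgA transport 3 of 9 were called, all lower: *Jchain*, the joining chain of the dimeric IgA that Pigr carries (-3.23, SE 0.39), *Ccl28*, the chemokine that attracts IgA-secreting cells (-1.63, SE 0.13), and *Tgfb1* (-0.61, SE 0.14). For genotype on the WD, 0 of the 96 were called by limma, and 16 had an unadjusted p under 0.05, 10 of them higher in iPgc1α-/- mice. Over all genes tested, 0.135% were called for genotype and 9.32% had an unadjusted p under 0.05.

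**Figure D4:**
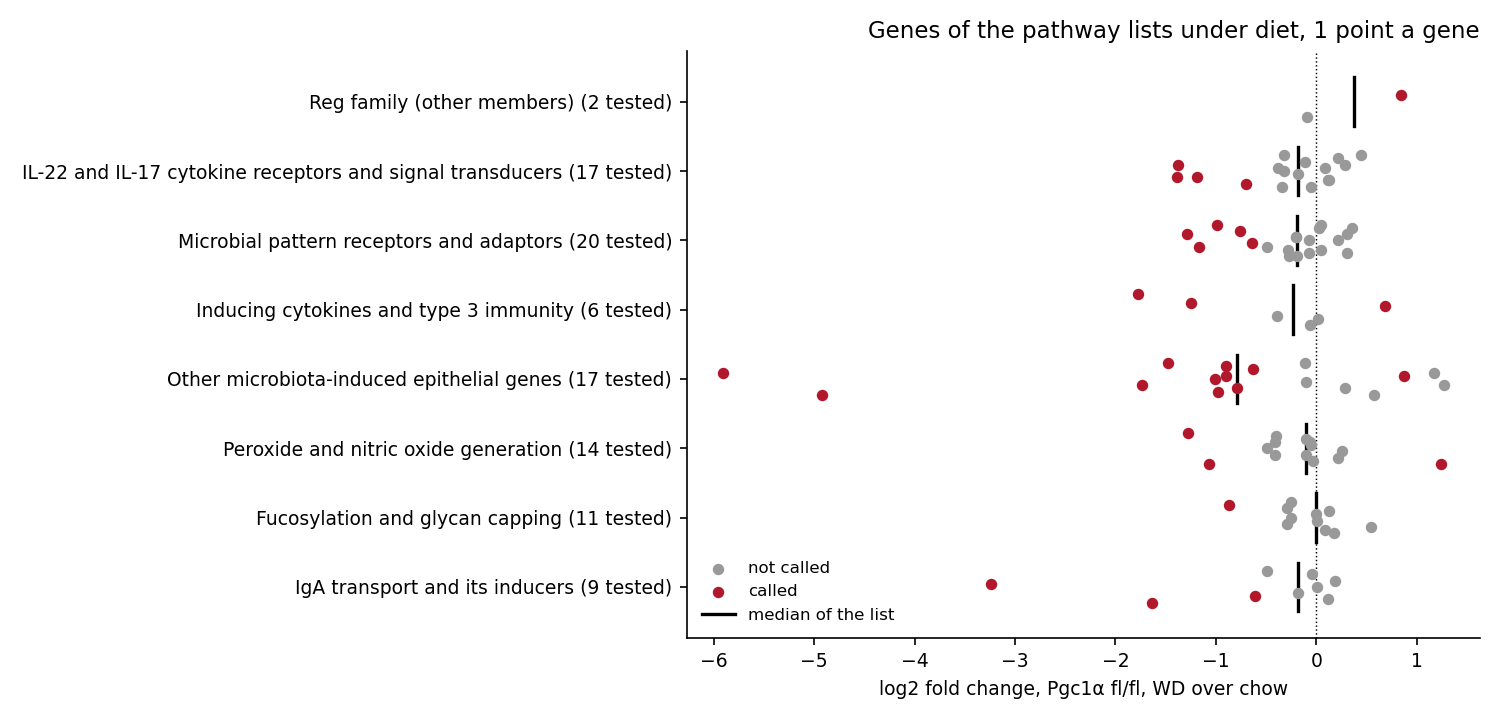
Log2 fold change on the WD in floxed mice (x axis) of each gene tested in 8 pathway lists, 1 point a gene, red where called, with the median of each list as a bar. Most called genes lie left of 0, and Saa1 and Saa2, at -4.92 and -5.91, lie farthest out.

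Markers of lymphocytes and goblet cells changed with the diet as well, where 8.43% of all genes tested were called (5.22% lower and 3.21% higher). Of 10 markers of T cells and intraepithelial lymphocytes, all were called in floxed mice, 9 lower and 1, *Cd4*, higher, with a median of -1.64 (*Cd8a* -1.76, *Itgae* -1.69, *Gzma* -2.17). Their summed signal on the linear scale ran from 23074 to 56074 on chow, from 17217 to 25359 in floxed mice on the WD and from 21293 to 33913 in iPgc1α-/- mice. Such a sum weighs the brightest probe most. On the WD this was *Cd4*, with mean log2 signals of 13.72 in floxed and 13.95 in iPgc1α-/- mice, so the sum understates the fall of the 9 lower markers. Of 7 B and plasma cell markers tested 5 were called lower (median -1.95), with sums of 2566 to 5463, 1090 to 2152 and 1161 to 1874. Of 7 goblet cell markers 5 were called lower (median -0.68), with sums of 429261 to 568645, 188372 to 463518 and 284771 to 414985. The uncalled markers of these lists also fell: *Cd79a* (-0.47), *Sdc1* (-0.27), *Tff3* (-0.54) and *Spdef* (-0.57). Each had a limma adjusted p under 0.05 at a fold change under 1.5. The type 3 innate lymphoid markers *Il23r* and *Ncr1* were not well above background on any array. Of the 4 tested 3 were called, 1 higher and 2 lower, with sums of 1682 to 2541, 1657 to 2095 and 1690 to 2533.

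Of the lists of epithelial cells, goblet cells included, only that of enterocytes had markers called in both directions. Of 11 enterocyte markers, 3 were called higher and 1 lower on the WD, with sums of 1024050 to 1237960 on chow, 1119240 to 1338210 in floxed and 1252840 to 1453190 in iPgc1α-/- mice on the WD. Of 7 Paneth cell markers tested, 3 were called lower (*Mmp7*, *Pla2g2a* and *Mptx2*) and the median was 0.0012, with sums of 378991 to 520536, 446144 to 590999 and 420673 to 532618. Of 6 macrophage, dendritic cell and neutrophil markers tested, 1 was called lower, and *Adgre1*, *Cd163* and *S100a8* were not well above background on any array. The sums of this list ran from 53202 to 85960, 43365 to 105133 and 49320 to 88214. Of 7 stromal, endothelial and muscle markers tested limma called 0, and 0 had an unadjusted p under 0.05. Of 6 crypt markers 1 was called lower, and of 6 enteroendocrine and tuft markers 2 were. For genotype on the WD limma called 0 of the 71 markers tested in the 10 lists, and 7 had an unadjusted p under 0.05. Over all genes tested these shares were 0.135% and 9.32%. The part of the lymphocyte, goblet and other markers in the changes of the 9 genes was not tested.

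**Figure D5:**
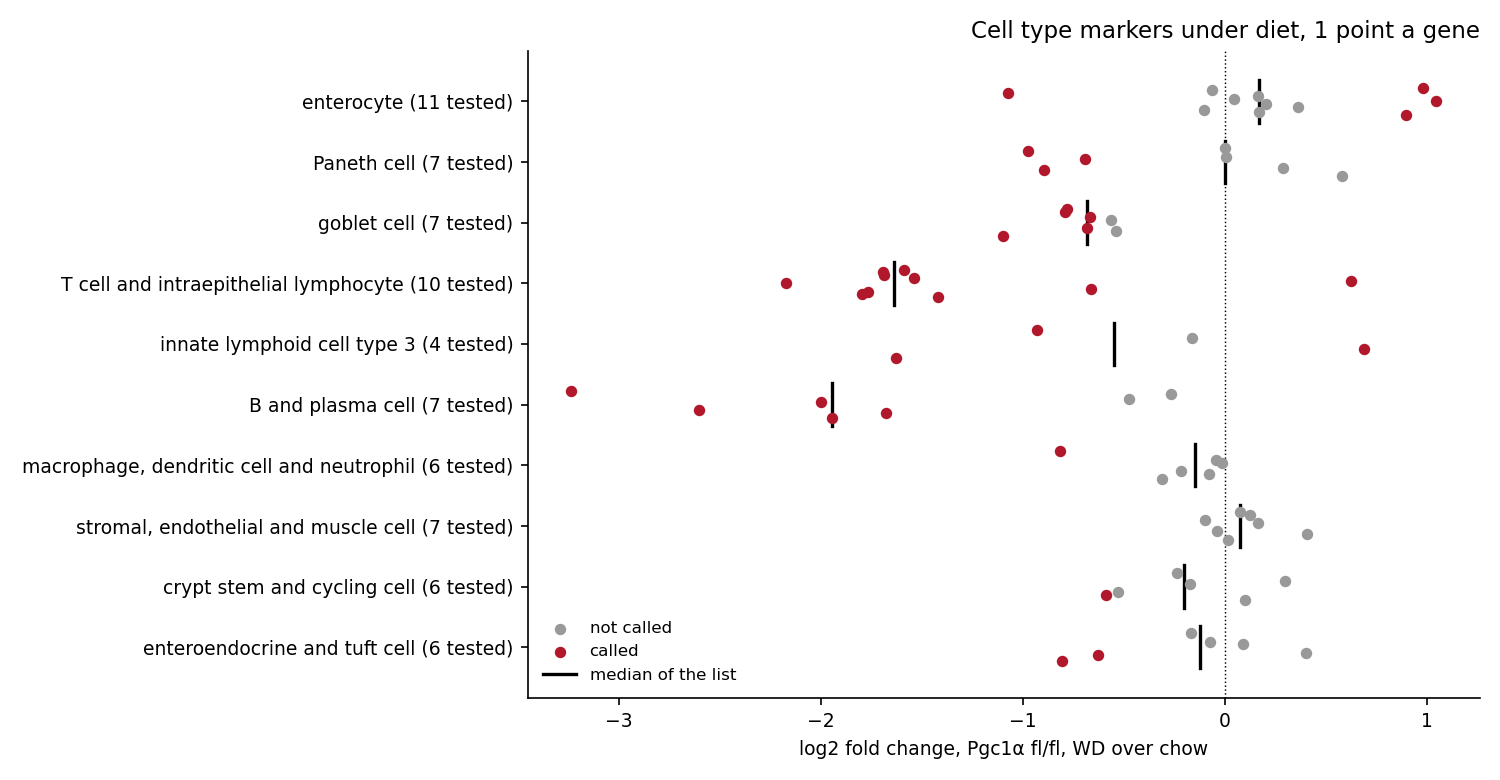
Log2 fold change on the WD in floxed mice (x axis) of each marker tested in 10 cell type lists, 1 point a gene, red where called, with the median of each list as a bar. Lymphocyte and B cell markers lie mostly left of -1, with medians of -1.64 and -1.95, and the enterocyte and Paneth cell medians lie at 0.17 and 0.0012.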

How the data were processed

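RNA of ileum cells was hybridised by the authors to one-colour Agilent mouse arrays (SurePrint G3 GE v2). They deposited the spot intensity values of each array from Agilent Feature Extraction 10.10.1.1, and processed log2 values of 33095 probes. Their methods name qsmooth and, before it, a removal of differences tied to the laboratory steps of labelling and washing. Which arrays shared such a step is not given in the sources used here, so no such correction was made.

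Control and outlier spots were removed and the spots of each probe averaged. A probe was tested if 5 or more of the 6 arrays of some group had it well above background, which left 32726. The log2 median signals were normalized by a reimplementation of qsmooth (window 0.05) and fitted with limma 3.58.1 in R 4.3.3 as 3 groups in one model, with Benjamini-Hochberg adjustment over all probes tested. Single values were compared by two-sided exact permutation over 924 divisions of 12 mice. Groups and replicate numbers came from the labels. Of the gene names on the array, 23666 matched a symbol of GRCm38.p6. Plots used matplotlib 3.10.9 in Python 3.11.15. The fit was tested on simulated data. On 32469 shared probes, r between these values, which carry no such correction, and the log2 values the authors deposited was 0.999994 or higher on each array.

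The 9 genes, the lists and the rules were chosen with earlier results of these data known. Named were all 9, up to 4 called genes of each pathway list with the largest change by diet, and the 6 genes most like the mean of the 8 tested; other genes were chosen after their values were seen. The number of arrays and the signal over background limit the precision. A comparison of the Reg proteins was planned and not run. Of the genes this rule names, 1 is not reported here.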

Additional observations from a re-analysis of the deposited data

Results flagged for a closer look

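Among 36 sets of 6 arrays checked for a value far from the other 5, of which chance marks about 1 in 20, 2 were marked. *Reg1* in floxed replicate 5 on the WD stood at 8.44, where the other 5 mice of its group lay between 7.25 and 7.51. The *Pigr* repeat probe on chromosome 19 stood at 16.62 in iPgc1α-/- replicate 6, where the other 5 lay between 17.09 and 17.23.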

How the results depend on the processing

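The count of genes called stayed within 5 to 6 for diet, at 0 for genotype and within 5 to 7 for diet and genotype together, under 15 other settings of signal, background correction, normalization, filter, block, variance, threshold and probe; leaving out each array in turn gave 5 to 5, 0 to 0 and 5 to 6. The replicate block left 5, 0 and 5 genes called. Whether the numbers pair the mice was not settled. Every pair of mice with the same number correlated above 0.1 for 1 of 6 numbers only. For numbers 1, 4 and 5 the lowest r was positive (0.20, 0.076 and 0.071). For numbers 2, 3 and 6 it was negative (-0.22, -0.065 and -0.19). Of 18 arrays, 8 correlated best with their own number, and the count that chance would give was not worked out. Directions turned for 3 results, none of them called. The diet difference of *Duox2* was -0.18 with the mean of all its probes, and ran from -0.44 to 0.46 with 1 array left out. The genotype differences of *Nos2* and *Reg1* ran from -0.065 to 0.40 and from -0.030 to 0.28. The causes were not tested. The 5 genes called for diet (*Reg3a*, *Reg3b*, *Reg3g*, *Reg1* and *Nos2*) were called under all 15 settings and with each array left out. *Pigr* was called for diet under 2 of the 15, at its chromosome 1 probe (-1.84) and with the mean of its probes (-1.01).
Over all genes tested, the counts called were 1816 for diet, 29 for genotype and 2544 for both together. With no fold-change threshold they were 5301, 46 and 7920. At an adjusted p of 0.01 the genotype count was 14, and with 1 array left out it ran from 18 to 39.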
